A study of Mus musculus with 7 samples.

Results

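Collagen chains are made in the endoplasmic reticulum as procollagen and must be modified, folded and trimmed before they can form fibres. Described here are 10 genes of that path: the lysyl hydroxylases Plod1, Plod2 and Plod3, the prolyl 4-hydroxylase alpha subunits P4ha1, P4ha2 and P4ha3, the collagen chaperone Serpinh1, the folding enzyme Fkbp10, and the proteinase enhancers Pcolce and Pcolce2. They were chosen by name, with earlier results of these data known. A gene counted as measured where the platform annotation gives a probe set to it alone, and of several such probe sets the one with the highest mean over the 7 arrays stands for the gene. By that rule 9 of the 10 genes were measured, with 14 probe sets, among 18193 genes in all. Fkbp10 was not analysed here.

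Gene expression in mouse bladder was measured on 1-colour Affymetrix whole-genome arrays, from total RNA that had been amplified in 2 rounds. There were 3 arrays of adult bladder, at Theiler stage 28, and 3 of bladder on postnatal day 1 (P1), at Theiler stage 27. A further array held whole P1 newborns, described in the labels as a common standard for comparing arrays. All mice were FVB/N. The bladder donors were males with a transgene in which the smooth muscle gamma-actin (SMGA) promoter drives the fluorescent reporter EGFP, 1 animal to an array as far as the labels tell, and each was dissected whole, so that muscle, connective tissue, urothelium and outer coat were measured together. The newborn array was a pool of 4 males and 4 females without the transgene. Its title names bladders, whereas its source and protocol name whole animals. Adult bladders were kept in liquid nitrogen and P1 bladders in a freezer, so age and storage cannot be told apart.

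Lysyl hydroxylases add hydroxyl groups to lysines, which then serve as sites for sugars and for cross-links between fibres. Prolyl 4-hydroxylase, an enzyme of P4ha alpha subunits with the P4hb beta subunit, hydroxylates the prolines that keep the triple helix stable at body temperature. Serpinh1, also known as Hsp47, binds the folded helix on its way out of the endoplasmic reticulum, and Pcolce and Pcolce2 speed the removal of the C-terminal propeptide by Bmp1 and its relatives outside the cell. The bladder wall depends on collagen for its strength and compliance, and its matrix is laid down before and after birth.

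The arrays were alike in overall level by construction, with a trimmed mean of 1500.01 on each, and with median intensities of 226.2 to 311.7 in adult bladders, 208.8 to 290.3 in P1 bladders and 434.2 in the newborn array. Defining markers fitted the bladder label: 3 of 5 smooth muscle markers and 2 of 5 urothelial markers were called higher in P1 bladders than in whole newborns, and 3 of 5 of each in adult bladders. The adult arrays were not uniform. Genes of the male accessory glands, Aoc1 excepted, were high in adult replicates 1 and 3 but not in replicate 2. The seminal vesicle gene Svs4 read 3149.7 in the first, 3.45 in the second and 3861 in the third adult array. Aoc1 read 195, 233 and 225 in the same arrays. The mean log2 level of the 8 measured gland genes was 10.01, 6.36 and 9.89 in adult replicates 1 to 3, 6.27 to 6.55 in P1 bladders and 6.86 in the newborn array. Values below are linear intensities, listed for replicates 1 to 3 of a group in that order, and differences are on the log2(intensity + 49) scale.

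Promoters are shown for the enhancer genes and for the main prolyl hydroxylase subunits, as pairs of related genes whose levels are compared within arrays further on. The windows run from 250 bases before to 50 bases after a RefSeq start on GRCm38.p6, 5′ to 3′ on the gene's strand. For Pcolce2 and P4ha2 this is the start of the gene. For Pcolce and P4ha1 it lies inside the gene, whose 5′ end is at 137611522 (Pcolce) or 59323197 (P4ha1). The windows of a pair are therefore not placed alike. Capitals mark GGGCGG (a GC box, the core of Sp1 sites), ACGTG (the core bound by hypoxia-inducible factors, HIF) and TATAAA, or their reverse complements. The enhancer pair is
Pcolce2, chr9:95637378-95637677, plus strand: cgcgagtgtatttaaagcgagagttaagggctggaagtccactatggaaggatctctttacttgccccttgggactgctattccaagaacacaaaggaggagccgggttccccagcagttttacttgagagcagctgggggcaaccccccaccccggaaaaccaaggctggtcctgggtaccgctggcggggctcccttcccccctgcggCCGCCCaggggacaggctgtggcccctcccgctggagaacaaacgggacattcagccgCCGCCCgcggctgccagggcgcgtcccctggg
Pcolce, chr5:137611355-137611654, minus strand: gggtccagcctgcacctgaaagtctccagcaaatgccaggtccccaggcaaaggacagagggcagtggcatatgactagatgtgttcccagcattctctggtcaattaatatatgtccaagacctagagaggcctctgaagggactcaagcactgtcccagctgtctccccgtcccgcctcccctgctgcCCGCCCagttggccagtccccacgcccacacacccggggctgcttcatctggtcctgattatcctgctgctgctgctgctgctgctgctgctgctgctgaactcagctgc
and the prolyl hydroxylase pair is
P4ha2, chr11:54100674-54100973, plus strand: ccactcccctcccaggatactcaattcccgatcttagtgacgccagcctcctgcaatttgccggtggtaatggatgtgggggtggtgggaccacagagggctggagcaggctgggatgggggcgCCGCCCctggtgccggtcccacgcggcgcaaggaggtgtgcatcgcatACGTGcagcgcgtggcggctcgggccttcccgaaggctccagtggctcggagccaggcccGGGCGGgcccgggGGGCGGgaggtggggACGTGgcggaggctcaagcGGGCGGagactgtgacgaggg
P4ha1, chr10:59323046-59323345, plus strand: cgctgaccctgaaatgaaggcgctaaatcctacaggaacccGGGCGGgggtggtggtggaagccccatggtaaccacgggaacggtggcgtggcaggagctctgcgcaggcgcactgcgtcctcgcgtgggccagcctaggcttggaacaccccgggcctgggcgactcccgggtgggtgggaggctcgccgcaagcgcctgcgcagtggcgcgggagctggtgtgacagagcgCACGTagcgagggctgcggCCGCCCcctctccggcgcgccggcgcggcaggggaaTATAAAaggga

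Of the 10 genes, 8 had such a window. GGGCGG occurred in 7 of the 8, against 35.7% of all 32851 windows of that length. ACGTG occurred in 4 of the 8 (Plod3, P4ha1, P4ha2 and Serpinh1), against 19.6%, and TATAAA in 2 of the 8, against 13.6%. CACGTG, which contains ACGTG on both strands, was in 0 of the 8. The Pcolce2 window held 17 CpG dinucleotides and that of Pcolce 5, with a median of 7 over all windows. Both Pcolce windows lacked ACGTG and TATAAA. These matches describe the sequence and say nothing about what binds there.

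In adult against P1 bladder, Pcolce2 rose by 4.67 on the log2 scale, and it was the gene among the 8 tested that changed. Most of the others had lower values in adult bladder, by up to 1.09, none of them past the test. Of the 8 genes, 2 had positive and 6 negative differences, with a median of -0.56, beside a median of -0.0077 over all 11930 genes tested. With adjusted p under 0.05 as the call, 8.97% of those genes were called, 4.02% higher and 4.95% lower (7.85% of probe sets), so that 1 call in 8 is close to the background. The level of a gene in whole bladder can differ because fewer cells of a type are there or because each holds less RNA, and these cannot be told apart here.

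**Figure D1:**
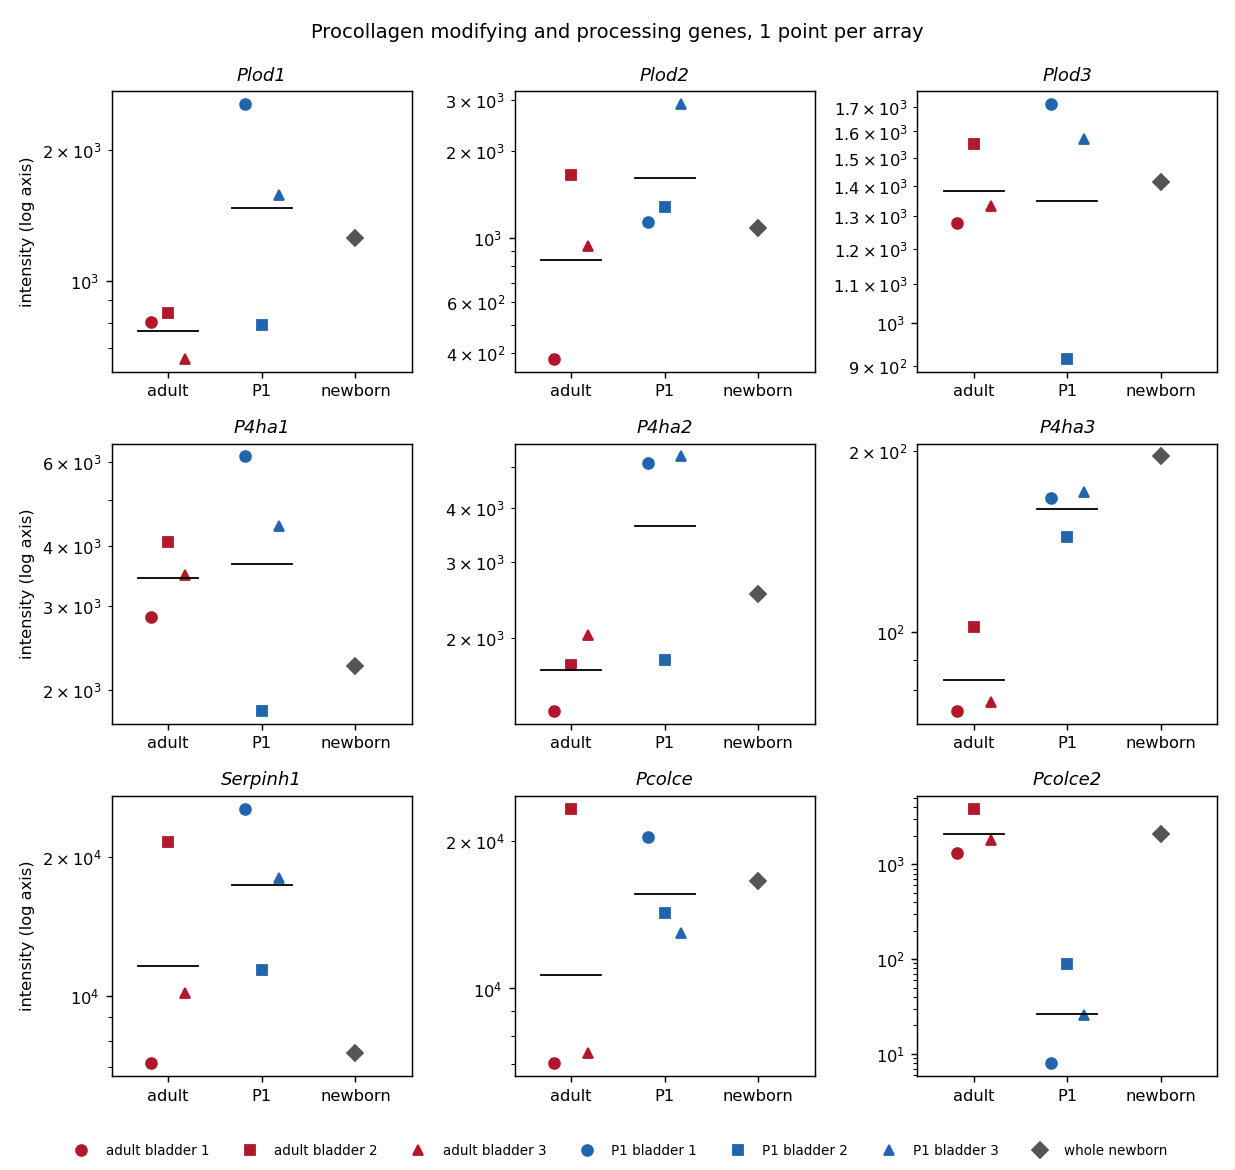
Intensity (log axis, each panel with its own range) of the 9 measured genes in adult bladders, P1 bladders and whole newborns, 1 point per array. The bars are geometric means of the 3 bladder arrays. The Pcolce2 groups lie far apart, with adult values of 1308 to 3863 against P1 values of 7.95 to 88.8, whereas in most other panels the adult and P1 points overlap.

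Pcolce2 encodes procollagen C-endopeptidase enhancer 2, a secreted protein that binds procollagen and raises the activity of the C-proteinases. Its probe set read 1308, 3863 and 1792 in adult bladders, against 7.95, 88.8 and 26.0 in P1 bladders, and 2096 in whole newborns. Every adult array lay above every P1 array, by an order of magnitude or more. In intensity the means were 2321 ± 1357 in adult and 40.9 ± 42.4 in P1 bladder (SD, n = 3 each). The log2 difference was 4.67 ± 0.51 (SE; 95% interval 3.52 to 5.83; limma, adjusted p = 0.00165).

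All 3 P1 readings of Pcolce2 lay below the median of their arrays, so the size of the difference leans on the added 49: it was 5.44 with 17 added and 3.48 with 165 added. The gene also passed the filter on dim probe sets through the adult arrays alone. Its call held in all 18 alternative settings, with differences of 3.48 to 5.54 and adjusted p of 0.000156 to 0.0363. Without adult replicate 2, which had the highest Pcolce2 reading, the difference was 4.24 (adjusted p = 0.0054). With adult replicate 2 alone, the array without the gland transcripts, it was 5.54 (adjusted p = 0.0363). In that setting, here and below, the lone adult array is assumed to vary like the P1 arrays, from which the spread is estimated.

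Pcolce, which encodes the first enhancer of the family, took another course. Its main probe set read 7029, 23295 and 7390 in adult bladders, against 20400.5, 14290 and 13007 in P1 bladders, and 16549 in whole newborns. Adult replicates 1 and 3 lay below all P1 arrays and adult replicate 2 above them all. The log2 difference of adult from P1 was -0.55 ± 0.43 (SE; adjusted p = 0.499). The second probe set read 1923.5, 3104.5 and 1545 in adult and 5255, 3153 and 3824 in P1 bladder, without overlap, and differed by -0.91 ± 0.34 (adjusted p = 0.136).

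The Pcolce result depended on 1 array. Without adult replicate 2 the main probe set differed by -1.11 (adjusted p = 0.0285), with array weights by -1.02 (0.0316), and with both arrays of strongest spike-in signal left out by -1.24 (0.0257). With adult replicate 2 as the lone adult array it differed by 0.58 (adjusted p = 0.408).

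Log2 ratios within an array were taken, here and for the pairs below, with the constant used for the differences added to both intensities. That of Pcolce2 to Pcolce was -2.38, -2.58 and -2.01 in adult bladders and -8.49, -6.70 and -7.44 in P1 bladders. It was -2.95 in whole newborns. The shift between the stages was 5.22, but its size rests on P1 readings of Pcolce2 below the array median and so leans on the constant added. The exact two-sided permutation test over the 6 bladder arrays gave p = 0.1, the smallest that 3 against 3 allows, or 0.133 adjusted over the 4 gene pairs compared. Since the probe sets of the 2 genes need not respond alike, only the shift between groups is readable from these ratios, and the pairs were chosen after the values were seen.

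**Figure D2:**
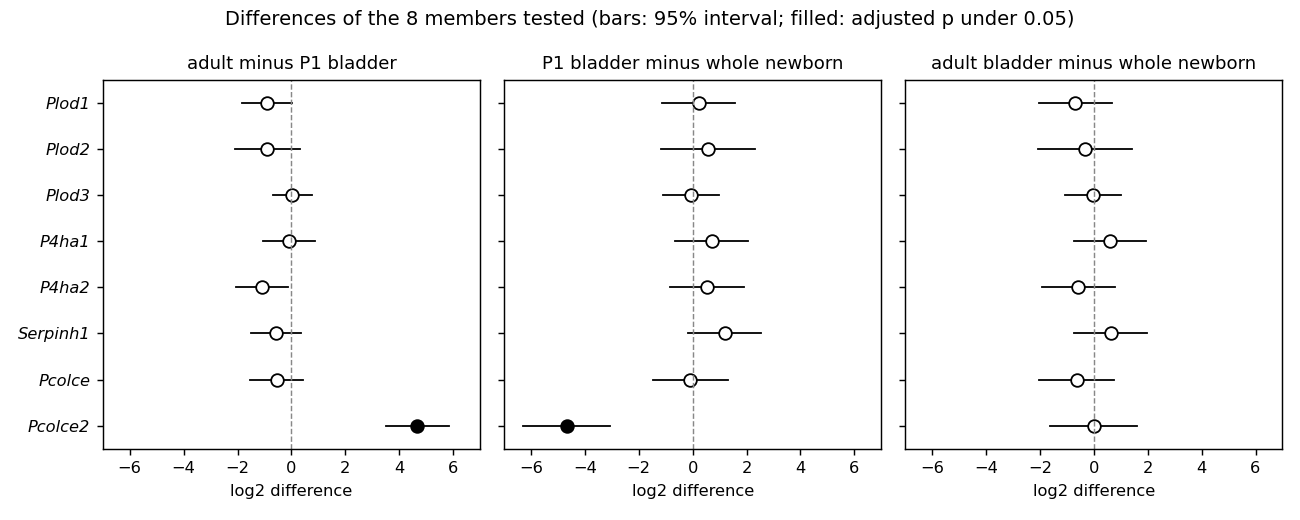
Log2 differences of the 8 tested genes in adult against P1 bladder, P1 bladder against whole newborn, and adult bladder against whole newborn, with 95% intervals (bars); filled points have an adjusted p under 0.05. Pcolce2 stands at 4.67, -4.68 and near 0 in the 3 comparisons, and no other gene is filled.

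The alpha subunits of prolyl 4-hydroxylase carry its active site and differ in the tissues that use them. P4ha2 read 1350.2, 1731 and 2030.3 in adult bladders, against 5103, 1778 and 5278 in P1 bladders, and 2529 in whole newborns. P1 replicates 1 and 3 lay well above the adult arrays, and P1 replicate 2 fell among them. The difference was -1.09 ± 0.43 (SE; 95% interval -2.05 to -0.13; adjusted p = 0.157). Without P1 replicate 2 it was -1.60 with adjusted p = 0.0331.

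P4ha1, the most widely used alpha subunit, read 2852, 4079 and 3483 in adult bladders, against 6162, 1810.2 and 4420.4 in P1 bladders, and 2247 in whole newborns. The P1 arrays spread 3.40-fold and enclosed the adult values. The difference was -0.10 ± 0.42 (95% interval -1.05 to 0.86; adjusted p = 0.922). Its other probe set was dim, at 83.9 to 362 in adult and 107 to 726 in P1 bladder, and was not tested between the stages. The log2 ratio of P4ha2 to P4ha1 was -1.05, -1.21 and -0.76 in adult bladders and -0.27, -0.03 and 0.25 in P1 bladders, a shift of -1.0 with groups that do not overlap (exact permutation p = 0.1, or 0.133 adjusted over the pairs).

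P4ha3 was near the bottom of the range. It read 73.9, 102 and 76.5 in adult bladders, 167, 144 and 171 in P1 bladders and 196 in whole newborns, below the array median in all 7 arrays, and it was therefore not tested. The adult and P1 values did not overlap, as was the case for 32.3% of the genes tested. In the fit without a filter its difference was -0.66 ± 0.36 with adjusted p = 0.417. At these intensities, without detection calls, the readings do not show whether the gene was expressed.

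The 3 lysyl hydroxylases differ in the lysines they act on: Plod2 modifies those of the telopeptides, which sets the type of cross-link, whereas Plod1 acts in the helix and Plod3 also transfers sugars. Plod1 read 800.5, 842 and 660.0 in adult bladders, against 2554, 788 and 1578 in P1 bladders, and 1252 in whole newborns. Again P1 replicate 2 was the array that overlapped the adults. The difference was -0.91 ± 0.42 (95% interval -1.85 to 0.03; adjusted p = 0.227). Leaving out P1 replicate 1 gave -0.52 and leaving out P1 replicate 2 gave -1.34. A second, dim probe set, below the median on every array and not tested, averaged 126 in adult and 81.7 in P1 bladder, the other direction, and the mean of both probe sets differed by -0.23 (adjusted p = 0.64).

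Plod2 read 382, 1649.5 and 937 in adult bladders, against 1132, 1279.9 and 2905 in P1 bladders, and 1085 in whole newborns. The spread within adult bladders, 4.32-fold, was the widest of the 9 genes at that age. The difference was -0.89 ± 0.54 (adjusted p = 0.36), and -0.49 ± 0.35 (0.448) on its second probe set. Without adult replicate 1 the main probe set differed by -0.37, without P1 replicate 3 by -0.48 and without adult replicate 2 by -1.36 (adjusted p = 0.138).

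Plod3 was the most even of the family. It read 1276, 1553 and 1333 in adult bladders, against 1711, 916 and 1569 in P1 bladders, and 1413 in whole newborns. The P1 arrays enclosed the adult ones, and the difference was 0.03 ± 0.32 with a 95% interval of -0.69 to 0.75. Relative to Plod3 in the same array, Plod1 shifted by -0.94 and Plod2 by -0.93 between the stages (exact permutation p = 0.1 and 0.3, adjusted 0.133 and 0.3).

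Serpinh1 read 7139, 21487 and 10133 in adult bladders, against 25368, 11385 and 17974 in P1 bladders, and 7533 in whole newborns. Adult replicate 2 lay within the P1 range and adult replicates 1 and 3 below it. The difference was -0.58 ± 0.42 (adjusted p = 0.455), and -0.61 ± 0.30 (0.258) on the second probe set. Without adult replicate 1 the main probe set differed by -0.23, without P1 replicate 1 by -0.30, without P1 replicate 2 by -0.88 and without adult replicate 2 by -1.02 (adjusted p = 0.0984). The main probe set is of a type that can match several transcripts.

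The adult bladders differed among themselves along much of this path, and also outside it. Of the 9 measured genes, 8 read highest in adult replicate 2, the exception being P4ha2. The share of all genes that did so was not counted. Over all probe sets this array correlated least with the other adults, at r = 0.931 and 0.936, against 0.971 between replicates 1 and 3. Pairs of P1 arrays were at a level like that of adult replicate 2, at 0.934 to 0.948. Against the mean of adult replicates 1 and 3, replicate 2 was 3.23 times as high for Pcolce, 2.5 for Plod2, and 2.49 for both Serpinh1 and Pcolce2, but 1.02 for P4ha2, 1.15 for Plod1 and 1.19 for Plod3. On the log2 scale the median of the 9 genes was 0.37 higher in replicate 2, while that of all genes tested was -0.04. Fibrillar collagen chains moved the same way, with a mean log2 level of 10.79, 11.29 and 10.81 in adult replicates 1 to 3. So did lists outside the path, with smooth muscle markers at 14.8, 15.58 and 14.83 and urothelial markers at 12.87, 13.49 and 12.99. Adipocyte markers (9.83, 8.87 and 10.29) and skeletal muscle markers (8.82, 8.64 and 8.81) did not. In P1 bladders, 6 of the 9 genes read lowest in replicate 2, again without a count over all genes. Adult replicate 2 also had the highest spike-in signal, 2.33 times that of the lowest array, and lacked the accessory gland transcripts. The part of either in these differences was not tested.

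These enzymes work with partners in the endoplasmic reticulum. The 20 such genes included P4hb, the prolyl 3-hydroxylases, Crtap, the collagen galactosyltransferases and general chaperones. Of the 19 tested, 1 fell and none rose, close to the 4.95% of all genes called lower. The median difference was -0.03. Differences ran from -0.80 for Ppib to 0.89 for Tmem38b, a channel of the reticulum (adjusted p = 0.317). The gene that fell was Ppib, cyclophilin B, a prolyl isomerase that works with the P3h1 and Crtap complex. It read 14614, 18283 and 14516 in adult bladders, against 31401, 23502 and 27771 in P1 bladders, without overlap, and differed by -0.80 ± 0.20 (adjusted p = 0.0459). That call was lost in 10 of 18 alternatives (adjusted p up to 0.302). P4hb, the beta subunit shared by all 3 alpha subunits, was close to level, at 34439, 43683 and 39219 in adult and 39153, 36219 and 44610 in P1 bladders (difference -0.03, adjusted p = 0.937).

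Downstream, Bmp1, the C-proteinase that the Pcolce proteins enhance, read 514, 277 and 646 in adult bladders, against 2150, 981 and 1193 in P1 bladders, and 1013 in whole newborns. All adult values lay below all P1 values, with a difference of -1.49 that missed the threshold (adjusted p = 0.0606). Bmp1 and Adamts3, an N-proteinase (-0.58, adjusted p = 0.285), were the 2 of 6 measured proteinases that could be tested. Of the 4 lysyl oxidases measured, which cross-link collagen after trimming, Lox fell by 2.80 (adjusted p = 0.000804) and the others differed by -0.15 to -1.02.

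The collagen chains are the substrates, and are read beside 4.95% of all genes called lower. Of 11 fibrillar chains, 9 were tested, 2 fell and none rose, 8 had negative differences and 1, Col27a1, a positive one (0.06), with a median of -0.55: Col5a1 differed by -2.02 (adjusted p = 0.00279) and Col1a1 by -1.98 (0.00605). Col1a1 read 5933, 11337 and 6921 in adult bladders, against 38897, 31708 and 23319 in P1 bladders. Col3a1 and Col1a2, also main chains of the bladder wall, differed by -0.31 and -0.11 (adjusted p = 0.449 and 0.863). With adult replicate 2 as the lone adult array, both calls were lost, at -1.56 for Col5a1 (adjusted p = 0.0501) and -1.43 for Col1a1 (0.0862). Of 17 other collagen chains, 16 were tested, 5 fell and none rose, with a median of -0.68. The 4 with positive differences were Col4a4 (1.12), Col4a6 (0.58), Col4a5 (0.15) and Col8a1 (0.03). The differences were -1.46 for Col16a1 (adjusted p = 0.0105), -1.41 for Col7a1 (0.0198), -1.52 for Col15a1 (0.0234) and -0.80 for Col14a1 (0.0284). Of 18 alternatives the call was lost in 2 for Col16a1, 5 each for Col7a1 and Col15a1 and 10 for Col14a1, including adult replicate 2 alone.

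**Figure D3:**
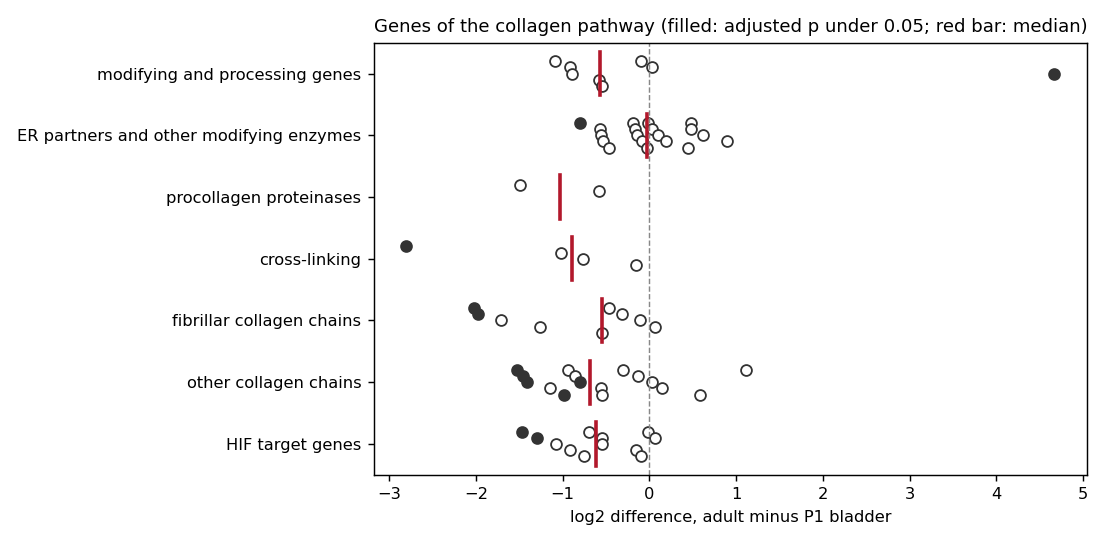
Log2 differences of adult from P1 bladder (horizontal axis) for the modifying and processing genes, their partners, the proteinases, the cross-linking enzymes, the collagen chains and HIF target genes, 1 point per tested gene. Filled points have an adjusted p under 0.05 and red bars are medians. Pcolce2 is the point at 4.67, beyond all other genes plotted, and every other filled point lies below 0.

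P4ha1, P4ha2, Plod1 and Plod2 are known targets of HIF, the factor that answers low oxygen. Of 12 other HIF targets, all tested, 2 fell and none rose, beside 4.95% of all genes called lower. Of the 12, 11 had negative differences, with a median of -0.62. Pdk1, which holds pyruvate out of mitochondria, differed by -1.47 (adjusted p = 0.0351) and Egln3, a prolyl hydroxylase that acts on HIF itself, by -1.29 (0.0461). Both calls were fragile: Pdk1 lost its call in 9 and Egln3 in 11 of 18 alternatives. Pgk1 and Ldha, enzymes of glycolysis, differed by -0.75 and -0.92 (adjusted p = 0.0714 and 0.0628).

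The 3 genes whose log2 levels followed Pcolce2 most closely over the 6 bladder arrays, among 11930, were Mgst2 (r = 0.998), a microsomal glutathione transferase, Tmem64 (0.996), a membrane protein, and Car3 (0.996), a carbonic anhydrase abundant in fat and slow muscle. The 6 arrays share the age difference, so that r mainly describes a gene that is high in every adult array. Mgst2 read 5819.5, 14581 and 6372 in adult bladders, against 469, 1013 and 627 in P1 bladders, and 5529.6 in whole newborns. Having been picked for its likeness over these same arrays, it also had the order of Pcolce2 within each age. Adult replicate 2 and P1 replicate 2 were the highest of their groups.

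Markers of several cell types were set beside Pcolce2. Of the 6 adventitial fibroblast markers, 4 were measured, with 2 positive and 2 negative differences, and 1 rose. This was Pi16, at 2580, 5311 and 3952 in adult against 1376.5, 877 and 985 in P1 bladders (1.79, adjusted p = 0.0148). That call was lost without adult replicate 3 (adjusted p = 0.0688), without P1 replicate 2 (0.0539), with adult replicate 2 alone (0.0678) and with the mean of its probe sets (0.109). The others were Dpp4 (1.07, adjusted p = 0.308), Cd34 (-0.07, 0.947) and Clec3b (-1.06, 0.0743), the last with all adult values below all P1 values. The summed intensity of the 4 was 9870 to 12207 in adult and 5330 to 11447 in P1 bladders. Of the 5 mesothelial markers, Gpm6a rose by 3.66 (adjusted p = 0.00491, or 0.0969 with adult replicate 2 alone), while Upk3b (0.19), Msln (0.20) and Wt1 (-0.74) did not pass the test. Lrrn4, which was not tested, read 594, 469.5 and 217 in adult against 116, 104 and 27.6 in P1 bladders. The summed intensity of the mesothelial list was 19638 to 22630 in adult and 14213 to 16068 in P1 bladders. It was carried by Upk3b, at 15431 to 17073 in adult and 13115 to 14633 in P1 bladders.

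Of the 4 adipocyte markers measured, Adipoq, a hormone of fat cells, rose by 3.65 (adjusted p = 0.00461, or 0.246 with adult replicate 2 alone). Fabp4, shared with endothelium, fell by 0.74 (0.0345), a call lost in 10 of 18 alternatives. Adipoq read 1167, 466 and 1231 in adult and 51.6, 2.28 and 30.0 in P1 bladders, lowest among adults in replicate 2, where Pcolce2 was highest. The summed level of these markers was 25399 to 27675 in adult and 39892 to 50127 in P1 bladders, carried by Fabp4, while Lep stayed at 9.35 to 254 and 6.87 to 13.4. Of the 5 general fibroblast markers, Col1a1 fell, as given above, and Dcn (0.72), Dpt (0.06), Pdgfra (-0.09) and Lum (-0.59) did not pass the test. All 6 skeletal muscle markers fell, with a median difference of -5.08 and a summed intensity of 17294 to 18118 in adult and 72633 to 109261 in P1 bladders. The part of these cell types in the Pcolce2 difference was not tested.

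**Figure D4:**
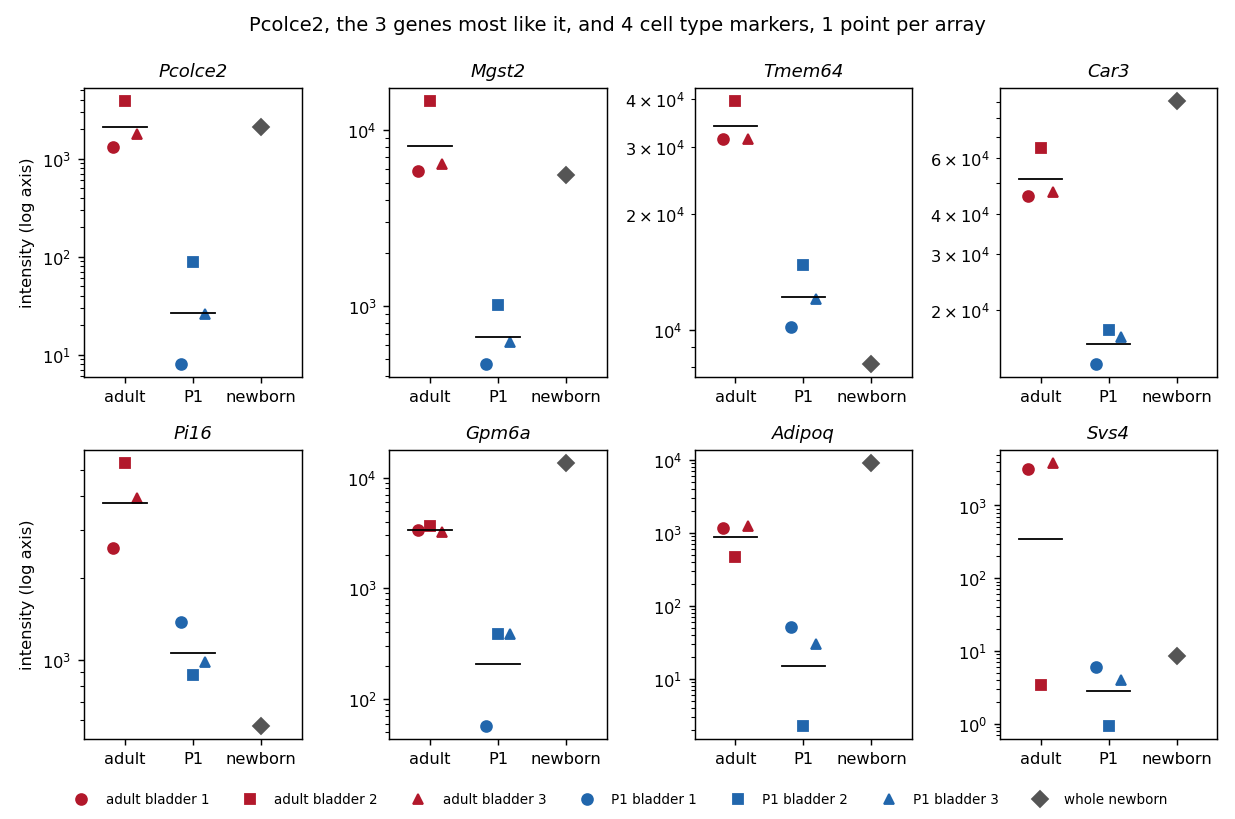
Intensity (log axis, each panel with its own range) of Pcolce2, of the 3 genes most like it over the bladder arrays, and of markers of adventitial fibroblasts (Pi16), mesothelium (Gpm6a), adipocytes (Adipoq) and male accessory glands (Svs4), 1 point per array with geometric means as bars. Pi16, Gpm6a and Adipoq were the genes of their lists called higher in adult than in P1 bladder. Not all others on those lists followed: Clec3b, Wt1 and Fabp4, not shown, had negative differences. Pcolce2 and Mgst2 are highest in adult replicate 2. There Adipoq is at its lowest adult value of 466 and Svs4 reads 3.45, with 3149.7 and 3861 in the other adult arrays.

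P1 bladder was then set against whole newborns of the same age. The newborn sample was 1 array, assumed to vary like the bladder arrays, and also differed in sex and genotype. Pcolce2 was lower in P1 bladder than in the whole newborn, with a log2 difference of -4.68 ± 0.71 (SE; 95% interval -6.30 to -3.06; adjusted p = 0.00558). Its values of 7.95, 88.8 and 26.0 in P1 bladders all lay far below the 2096 in whole newborns. Of the 8 genes tested it was the 1 called, beside 9.58% of all 13745 genes, 3.19% higher and 6.39% lower (7.42% of probe sets). Of all called genes 33.3% were higher in P1 bladder, with 48.2% under quantile normalization and 65.0% under median centring. In this comparison the gene passed the filter on dim probe sets through the newborn array alone, where it is high, and its size leans on the constant added, with -5.45 for 17 and -3.48 for 165. The call held in 15 of 15 alternatives.

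The other 7 genes had differences of -0.09 to 1.20 from whole newborns. Serpinh1 was the highest, at 18242.5 ± 6995.1 in P1 bladders (SD, n = 3) against 7533 in whole newborns, with all 3 P1 arrays above it. The difference was 1.20 ± 0.60 (adjusted p = 0.279) and 0.94 ± 0.43 (0.23) on the second probe set. With median centring, which moved the median of all genes by 0.68, it was 1.88 with adjusted p = 0.0497, or 1.20 above that median. P4ha1 (0.70), Plod2 (0.56), P4ha2 (0.52) and Plod1 (0.23) were also on the positive side without passing the test.

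Markers of tissues that are rich in collagen and absent from bladder were high in the newborn array. Of the 6 cartilage markers, 4 were lower in P1 bladder, with a summed intensity of 1259 to 1690 in P1 bladders against 28192 in whole newborns, and of the 4 bone markers 2 were, at 193 to 689 against 15740. The defining genes Col2a1 and Ibsp read 48.8 to 261 and 2.64 to 66.5 in P1 bladders, against 7330 and 9463. Adipoq read 51.6, 2.28 and 30.0 in P1 bladders, against 9088 in whole newborns. Of the 4 adventitial fibroblast markers, Dpp4 was lower in P1 bladder (-3.42, adjusted p = 0.0373), while Clec3b (1.57), Pi16 (0.84) and Cd34 (0.39) had positive differences that did not pass the test. What each tissue gave to the newborn level of Pcolce2 was not tested.

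Adult bladder against the same newborn array shares that array, so the values stand side by side with those above. Pcolce2 averaged 2321 in adult bladder against 2096 in whole newborns, a log2 difference of -0.0049 ± 0.72 (95% interval -1.62 to 1.62; adjusted p = 0.998). The adult arrays thus lay on both sides of the newborn value. Of the 8 genes, 0 passed limma's test and 0 had an unadjusted p under 0.05, beside 15.3% of 13504 genes called, 6.1% higher and 9.23% lower (11.6% of probe sets). Of those calls 39.8% were higher in adult bladder, with 50.7% under quantile normalization and 67.2% under median centring. The differences ran from -0.68 for Plod1 to 0.62 for Serpinh1. Without adult replicate 2, Pcolce differed by -1.19 with adjusted p = 0.0383.

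By mean intensity, the order of the 3 groups differed between genes. Pcolce2 was highest in adult bladder, close to whole newborns, and P1 bladder lay below both beyond the spread. P4ha1 and Serpinh1 were highest in P1 bladder, next in adult bladder and lowest in whole newborns. Plod1, Plod2 and P4ha2 were highest in P1 bladder, then whole newborns, then adult bladder. Pcolce and P4ha3 were highest in whole newborns and lowest in adult bladder, and Plod3 had nearly equal means of 1387, 1398.5 and 1413 in adult bladder, P1 bladder and whole newborns. Apart from Pcolce2, no neighbours in these orders differed by a tested margin.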

How the data were processed

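The deposited values are linear intensities and carry no detection calls. They were made with GCOS, per the submitters' processing notes; its version, and how probes were summarised, is not given in the sources used here. The deposited intensities have the same mean, 1500.01, on every array once the highest and lowest 2% are dropped, which shows a scaling per array. Of 45101 probe sets, 64 controls were left out. Of the others, 34945 name 1 gene in the platform annotation, 932 several and 9160 none.

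The members and gene lists were chosen with earlier results of these data known. Values were analysed as log2(intensity + 49), with the 20th percentile of all values as the 49. Adult against P1 bladder was fitted to the 6 bladder arrays with limma 3.58.1 in R 4.3.3 (lmFit, eBayes with a trend, two-sided), over the 23304 probe sets that exceeded the array median on 3 or more of them. Both comparisons with the newborn array used all 7 arrays in 3 groups, and probe sets that exceeded the median on 1 or more of the 4 arrays compared. P-values were adjusted by the Benjamini-Hochberg method over all probe sets tested and called under 0.05. The limma p-values set each difference against the spread between arrays within the bladder groups. The newborn array, being 1, adds nothing to that spread. All members were named, and of each other list the called genes, at most 4 by adjusted p; other list genes were named after their values were seen, for their roles. The number of arrays limits the precision. Promoter sequences are RefSeq's, on GRCm38.p6.

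Alternatives were pseudocounts of 17 and 165 (the 10th and 40th percentiles), array weights, no trend in eBayes, centring on medians, quantile normalization, the filter left out or set at the 70th percentile, the mean of a gene's probe sets, leaving out each bladder array or the 2 with the strongest spike-in signal, and all 7 arrays in 1 fit. Reducing the adult arrays to replicate 2 was added after seeing the data.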

Additional observations from a re-analysis of the deposited data

How the results depend on the processing

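Over 24 differences of the genes described and 391 alternative values, 351 kept direction and side of the threshold, 6 passed it newly and 34 turned in sign; the cause was not tested. Pcolce2 kept both calls throughout. With array weights 4660, 4172 and 8364 probe sets were called in adult against P1 bladder, P1 bladder against newborn and adult bladder against newborn, and with adult replicate 2 alone 315 in the first and 1108 in the last. Leaving out 1 array gave 647 to 2294 (1829 with all), 1418 to 2620 (2101) and 1818 to 4636 (3255), and 1 to 2, 1 to 1 and 0 to 1 of the genes described. In adult against P1 bladder 2 were called with array weights or with both arrays of strongest spike-in signal left out, and in P1 bladder against newborn 2 with median centring. In adult against P1 bladder the sign turned with adult replicate 2 alone for Plod2 (0.03), P4ha1 (0.15), Serpinh1 (0.31) and Pcolce (0.58); for Plod3 with array weights (-0.003), without adult replicate 2 (-0.05) and without P1 replicate 2 (-0.24); and for P4ha1 without adult replicate 1 or P1 replicate 3 (0.04 each) and without P1 replicate 1 (0.27). Leaving out 1 array gave -0.60 to 0.27 for P4ha1 there, -0.23 to 0.21 for Plod3 and -0.28 to 0.05 for Pcolce in P1 bladder against newborn, and -0.80 to 0.19 for Plod2 and -0.44 to 0.32 for Pcolce2 in adult bladder against newborn. In P1 bladder against newborn it turned for Plod1 with the mean of its probe sets (-0.11) and without P1 replicate 1 (-0.16), for Plod3 with quantile normalization (0.18), median centring (0.62) and without P1 replicate 2 (0.21), and for Pcolce with median centring (0.60) and without P1 replicate 3 (0.05). In adult bladder against newborn it turned with quantile normalization for Plod2 (0.06), Plod3 (0.20) and Pcolce2 (0.09), with median centring for Plod2 (0.33), Plod3 (0.64), P4ha2 (0.09), Pcolce (0.04) and Pcolce2 (0.66), with 165 added for Pcolce2 (0.002), without adult replicate 1 for Plod2 (0.19), Plod3 (0.03) and Pcolce2 (0.32), without adult replicate 3 for Pcolce2 (0.10), and with adult replicate 2 alone for Plod2 (0.58), Plod3 (0.13), Pcolce (0.49) and Pcolce2 (0.87). No paired analysis was possible because the labels link no adult array to a P1 array. Readings near background, such as Pcolce2 at P1 and P4ha3 throughout, limit the size of a difference.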
